A study of Mus musculus with 48 samples.

Results

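The genes described here are 10 that mark the subsets of mouse dendritic cells or act in their development: Xcr1, Clec9a, Batf3, Zbtb46, Cd209a, Clec10a, Siglech, Ccr9, Flt3 and Itgae. They were picked by symbol from a list of known markers, with earlier results of these data known, and each matched 1 of the 55486 genes with an identifier in the count table. The study asked what loss of QPCTL, a Golgi enzyme that forms pyroglutamate at protein ends, does in mice and in their tumours, using bulk RNA sequencing of 48 samples. Baseline samples were whole lymph node, spleen and bone marrow of mice aged 10 to 15 weeks with no tumour, 8 per organ, of which 4 were homozygous QPCTL-KO and 4 were wild-type littermates of the same C57/Bl6JR strain. Tumour-bearing samples were whole lymph nodes and live CD45-negative cells sorted from the tumours, 12 each, taken at day 14 after inoculation with the B16F10 melanoma line. In these, 6 knockout mice carried QPCTL-KO B16F10 cells and 6 wild-type littermates carried QPCTL-WT cells, so the genotype of host and tumour changed together. The labels call the genotype homozygous and name no cell type that the deletion is limited to.

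Each column of counts is named by a running number over the series, a tissue and a number within the tissue, and the labels hold neither number. For spleen, bone marrow and CD45-negative tumour cells the name gives the group, and these 28 libraries were used with both genotypes together in each. The names of the 20 lymph node columns do not say which nodes were baseline and which tumour-bearing, and the order of columns was not used to assign them, so lymph node and the comparison of tumour-bearing with baseline nodes are not analysed here. For the same reason knockout and wild type were not compared, and genotype adds to the spread within each tissue. The labels number the animals of each group, but the columns could not be tied to those numbers, so p-values measure the spread between these libraries.

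Dendritic cells take up antigen and present it to T cells, and they arise in the bone marrow from progenitors that need the receptor tyrosine kinase Flt3. Conventional dendritic cells of the first type (cDC1) take up dead cells and present their antigens to CD8 T cells, and the transcription factor Batf3 is needed for them. Those of the second type (cDC2) mainly prime CD4 T cells, while plasmacytoid dendritic cells make type I interferon on contact with viral nucleic acid. All of these cells carry CD45 and should therefore be removed by a sort for CD45-negative cells. In whole tissue, fewer cells of a type and less RNA per cell cannot be told apart.

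Counts were low. Libraries held between 54117 and 637985 counts, against an average of 18 M reads per sample stated in the labels. The spleen libraries ranged from 219229 to 626316 counts, those of bone marrow from 227240 to 637985, and those of CD45-negative cells from 54117 to 510363. The light-strand mitochondrial gene mt-Nd6 had, per kilobase, 67 to 511 times the count of the median heavy-strand mitochondrial coding gene, and 67.8% to 86.8% of all counts lay in genes with at least 50 exon bases opposite an exon of another gene. The library kit keeps strand information, and whether the counts are reads of each gene's own transcripts was not tested. Of the dendritic cell genes, 9 of 10 have no exon base opposite another gene, and Ccr9 has 1954 such bases, of which 1932 lie opposite AC165425.1. Ptprc and the melanocyte list fitted the tissue labels. Ptprc, which encodes CD45, had 0 counts in all 12 CD45-negative libraries against 18 to 299 in spleen and 44 to 218 in bone marrow. The 8 melanocyte genes summed to 2723 to 7502 CPM (counts scaled to 1000000 per library) in CD45-negative cells and to at most 317.6 in spleen. Most of the spleen sum came from Pmel, at a median of 231 CPM and with 139 exon bases opposite another gene. Csf1r of the macrophage list and Eomes of the NK cell list were not called between spleen and CD45-negative cells. Their log2 fold changes were 0.23 and 0.16, while 8 of 10 and 3 of 6 genes of their lists were called higher in spleen. The spleen library numbered 6 stood apart, with a median correlation of 0.738 to the other spleen libraries, a B cell list at 189.4 CPM against a spleen median of 1103, and an erythroid list at 4864 CPM against 682.2. Spleen libraries 5 and 8 (0.838 and 0.809) and CD45-negative library 4, the shallowest (0.808), also correlated less with their group. Among 122 pairs of libraries of 1 tissue, none was identical.

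**Figure D1:**
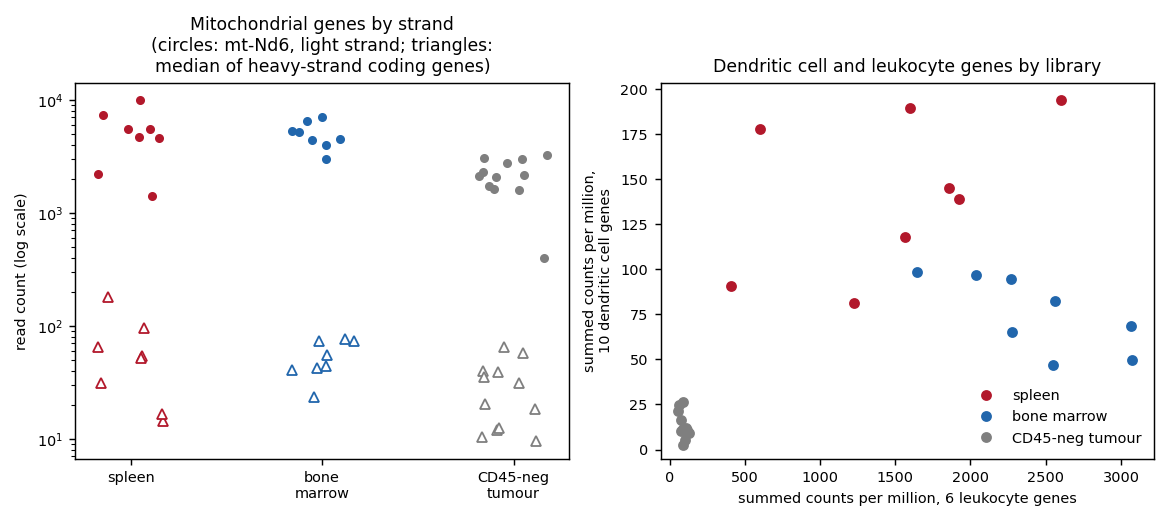
Left, read counts per library on a log scale for mt-Nd6 (circles) and for the median heavy-strand mitochondrial coding gene (triangles) in spleen, bone marrow and CD45-negative tumour cells. Right, the summed CPM of the 10 dendritic cell genes against that of 6 leukocyte genes, 1 point per library. The circles lie above the triangles in every library, and the 12 CD45-negative libraries lie at the lower left, at 26.5 CPM or less for the dendritic cell genes.

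The upstream sequences of 3 members are shown as a description, and no comparison of tissues below rests on a sequence. Clec9a and Xcr1 are markers of cDC1 whose counts were higher in spleen than in bone marrow. Siglech is a marker of plasmacytoid dendritic cells whose difference between the organs was not called. Each sequence is the 250 bases before the start of the RefSeq transcript (GRCm38.p6), written 5′ to 3′ on the gene's strand. Clec9a lies at chr6:129408612-129408861 on the plus strand, Xcr1 at chr9:123862030-123862279 on the minus strand and Siglech at chr7:55767934-55768183 on the plus strand. Capitals mark a match to the E-box that E proteins such as the plasmacytoid regulator Tcf4 bind.
Clec9a: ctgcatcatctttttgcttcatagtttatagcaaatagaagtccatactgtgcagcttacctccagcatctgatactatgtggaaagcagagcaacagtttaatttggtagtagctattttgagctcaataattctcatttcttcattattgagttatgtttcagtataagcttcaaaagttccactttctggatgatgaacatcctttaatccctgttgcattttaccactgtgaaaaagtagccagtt
Xcr1: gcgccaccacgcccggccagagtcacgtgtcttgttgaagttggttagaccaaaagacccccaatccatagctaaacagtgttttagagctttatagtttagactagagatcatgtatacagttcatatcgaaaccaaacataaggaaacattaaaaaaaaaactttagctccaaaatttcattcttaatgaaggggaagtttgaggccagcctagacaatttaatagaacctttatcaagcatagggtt
Siglech: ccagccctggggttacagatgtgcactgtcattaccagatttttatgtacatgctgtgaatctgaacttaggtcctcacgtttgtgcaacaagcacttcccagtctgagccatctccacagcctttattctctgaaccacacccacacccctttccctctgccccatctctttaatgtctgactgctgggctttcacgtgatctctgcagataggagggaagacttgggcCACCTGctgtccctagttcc

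RefSeq gave such a window for 8 of the 10 genes. On both strands, 3 motifs that do not overlap one another were searched: the AP-1 site TGANTCA, which Batf3 binds with Jun proteins, the PU.1 core GAGGAA and the E-box CAGGTG. In the Siglech window the E-box was found once, on the opposite strand (CACCTG), from -20 to -15 counted from the transcript start. The other matches were an E-box in the Ccr9 window (-85 to -80) and GAGGAA in that of Batf3 (-153 to -148). The Zbtb46 window held an E-box (-238 to -233) and TGACTCA (-61 to -55). The windows of Ccr9, Zbtb46 and Batf3 lie inside the annotated bounds of their genes. That of Zbtb46, at 181424389 to 181424638, lies in a gene from 181387762 to 181459426. The ends of the Ccr9 and Batf3 windows are part of an annotated transcript. These matches are thus not shown to lie upstream of the whole gene. The windows of Clec9a and Xcr1 held no match to any of the 3. Of the 32851 RefSeq promoter windows of that length, 17.22% held the E-box, 6.75% TGANTCA and 23.25% GAGGAA, and a match describes letters, not a bound site.

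Between spleen and bone marrow, 5 members differed. Clec9a, Xcr1 and Batf3, genes of cDC1, were higher in spleen, by 10.3-fold, 3.52-fold and 7.27-fold in pooled CPM, and Ccr9 was higher by 2.21-fold. Clec10a, a gene of cDC2 and macrophages, was the only member called lower in spleen, from 2 counts against 15. In all, 4 of 10 members were called higher in spleen, where 12% of all 24548 genes with a count were, and 1 of 10 was called lower, where 7.41% were (edgeR's quasi-likelihood test, Benjamini-Hochberg adjusted p below 0.05). The median log2 fold change of the members was 1.01, beside 0.13 over all genes tested. None of the 10 reached the count that edgeR's default filter asks for, so these tests come from the fit without a filter. With genes of at least 1 CPM in at least 8 libraries, all 10 were kept and all 30 tests fell on the same side of the threshold. Of the 15885 genes kept by that filter, 14.8% were called higher and 11.5% lower in spleen.

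Among the cDC1 genes, Clec9a encodes the receptor by which these cells sense actin filaments of dead cells (ENSMUSG00000046080, GRCm38 chromosome 6, 129408862 to 129424763, plus strand, 7 exons). It ranged from 7.89 to 42.9 CPM in the 8 spleen libraries, with a median of 23.1, and from 0 to 5.88 CPM in bone marrow, with a median of 2.5. In CPM every spleen library lay above every bone marrow library, a separation shown by 1.38% of all genes. Spleen library 6 was the lowest of its group, at 7.89 CPM from 2 counts. Bone marrow library 3 reached 5.88 CPM from 3 counts, so the raw counts overlapped and the separation rests on scaling for depth. The log2 fold change was 3.11 with a standard error of 0.49 and an adjusted p of 1.05e-08, from 68 counts in spleen and 9 in bone marrow. In CD45-negative cells 10 of 12 libraries were at 0, and the other two held 3 counts in all.

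Xcr1 encodes the receptor for the chemokine Xcl1, which activated CD8 T cells and NK cells release (ENSMUSG00000060509, chromosome 9, 123852315 to 123862029, minus strand, 2 exons). Its lowest, median and highest levels were 4.51, 22.6 and 34.3 CPM in spleen. In bone marrow they were 2.49, 6.53 and 23.1 CPM, with library 7 at the top. The groups overlapped: only bone marrow libraries 1 and 3, at 2.49 and 3.92 CPM, lay below the lowest spleen library. The log2 fold change of spleen over bone marrow was 1.68 (SE 0.42, adjusted p = 0.000786 by edgeR). Spleen library 5 was the only spleen library below the bone marrow median. In CD45-negative cells Xcr1 had 2 counts over 12 libraries, and every spleen library lay above all of them.

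Batf3, the transcription factor that cDC1 depend on, lies on chromosome 1 (ENSMUSG00000026630, 191097847 to 191108945, plus strand). It ranged from 0 to 23.6 CPM in spleen with a median of 11, and 5 of 8 bone marrow libraries were at 0, with a highest value of 9.24 CPM. The groups overlapped, with 3 spleen libraries, 1 of them without a count, below the highest bone marrow library, and the log2 fold change was 2.57 (SE 0.60, adjusted p = 0.000218 by edgeR). In CD45-negative cells Batf3 had 0 counts in all 12 libraries. Itgae encodes the integrin alpha chain CD103, which cDC1 share with T cells of epithelia, and it was not called between the organs. It ranged from 3.38 to 43.4 CPM in spleen (median 10.3) and from 6.61 to 27.4 CPM in bone marrow (median 15.8), with overlapping groups and a log2 fold change of -0.24 (SE 0.39, adjusted p = 0.754 by edgeR). Spleen library 6, which stood apart above, held the highest Itgae value.

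Zbtb46, a transcription factor of conventional dendritic cells and their committed precursors, was near the detection limit in all 3 tissues. It had 13 counts over the spleen libraries, 7 over those of bone marrow and 12 over those of CD45-negative cells, with medians of 3.47, 2.24 and 2.91 CPM. The 3 ranges overlapped, and no pair of tissues was called different, with adjusted p between 0.245 and 0.527 by edgeR. Zbtb46 was thus the one member whose CD45-negative level was not below both other tissues in the fitted values, at a log2 fold change of bone marrow over CD45-negative cells of -0.65 (SE 0.66).

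The cDC2 genes had few counts, between 2 and 21 per organ. Cd209a encodes a C-type lectin that in mice marks monocyte-derived and cDC2 cells. It ranged from 0 to 13.7 CPM in spleen (median 3.23) and from 0 to 13.9 CPM in bone marrow (median 6.25). The tissues overlapped over nearly their whole range, and the log2 fold change was -0.35 (SE 0.58, adjusted p = 0.756 by edgeR). Clec10a encodes the galactose-binding lectin CD301. It was at 0 in 6 of 8 spleen libraries and at most 2.88 CPM in the others, while bone marrow ranged from 0 to 7.54 CPM with a median of 4.27. The log2 fold change was -2.04 (SE 0.76, adjusted p = 0.0405 by edgeR), and the ratio of pooled CPM, spleen over bone marrow, was 0.182 with a 95% counting interval of 0.0202 to 0.781. Its call was lost when any of 9 libraries was left out (spleen 1, 2, 5, 6, 7 or 8, or bone marrow 1, 2 or 5), with adjusted p up to 0.0844, and with DESeq2 (0.209) or a fit of spleen and bone marrow alone (0.055).

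Of the plasmacytoid genes, Ccr9 was called and Siglech was not, and the difference between the 2 was not tested. Siglech, a lectin-like receptor of plasmacytoid dendritic cells and some macrophages (ENSMUSG00000051504, chromosome 7, 55768178 to 55778925, plus strand, 6 exons), had 35 counts in spleen and 38 in bone marrow. Its levels ran from 3.95 to 17.9 CPM in spleen (median 15.9) and from 5.51 to 19.9 CPM in bone marrow (median 9.68). The ranges overlapped and the log2 fold change was 0.29 (SE 0.44, adjusted p = 0.708 by edgeR), which neither shows a difference nor shows that the levels are alike. Spleen libraries 5 and 6 were the lowest 2 of their group, with 1 count each. Ccr9 encodes the receptor for the gut and thymus chemokine Ccl25, carried by plasmacytoid dendritic cells and by immature T cells. It ranged from 11.8 to 70 CPM in spleen (median 36) and from 9.92 to 27.8 CPM in bone marrow (median 15.3). The log2 fold change was 1.12 (SE 0.34, adjusted p = 0.00754 by edgeR), with overlapping groups, and the call was lost with limma-voom (adjusted p = 0.0785). The reads of Ccr9 and of the transcript opposite it were not told apart here.

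Flt3, the growth factor receptor of dendritic cell progenitors, is also carried by early lymphoid progenitors (ENSMUSG00000042817, chromosome 5, 147330741 to 147400489, minus strand, 25 exons). In spleen it ranged from 0 to 20.6 CPM with a median of 8.96, and in bone marrow from 2.76 to 7.59 CPM with a median of 5.09. The bone marrow libraries lay closer together (SD 1.57 CPM) than those of spleen (SD 6.22 CPM), and the log2 fold change of 0.89 was not called (SE 0.51, adjusted p = 0.239 by edgeR).

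**Figure D2:**
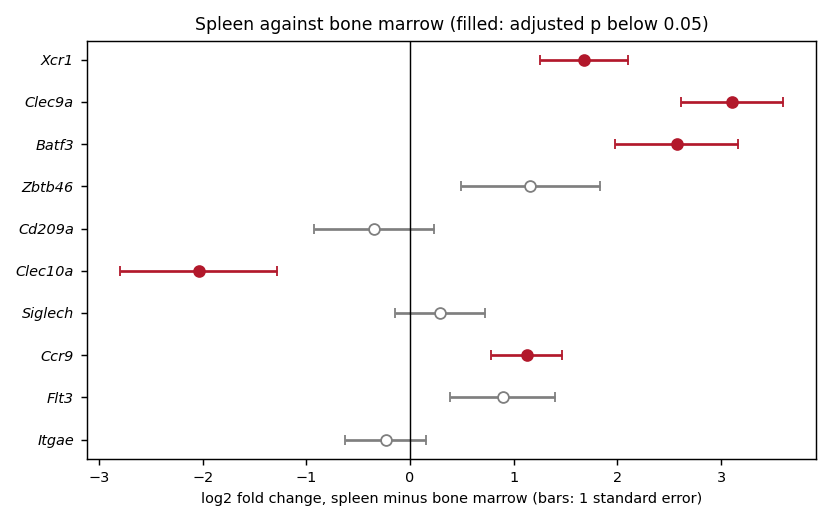
Log2 fold change of each dendritic cell gene, spleen minus bone marrow, with bars of 1 standard error, from 8 libraries per tissue. Filled points have an adjusted p below 0.05: Xcr1, Clec9a, Batf3 and Ccr9 lie to the right of 0 (higher in spleen), and Clec10a lies to the left at -2.04.

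Other cell types differed between the same libraries. The B cell list summed to 189.4 to 1536 CPM in spleen and to 55.12 to 231 in bone marrow, with all 8 of its 8 genes called higher in spleen. All 10 of the 10 T cell genes were called higher in spleen too, with sums of 31.56 to 427.6 against 19.29 to 63.27 CPM. The macrophage list had 6 of 10 genes called higher and 1 called lower in spleen, while its sum was lower there, at 623.3 to 1314 CPM against 1364 to 2711 in bone marrow. The gene called lower was Lyz2 (log2 fold change -2.38, adjusted p = 1.96e-24 by edgeR), so the lower sum does not describe most genes of the list. The neutrophil list ran the other way, at 32.3 to 1744 CPM in spleen and 16260 to 34700 in bone marrow, and Ly6g, which marks neutrophils, was at 0 in all 8 spleen libraries. Of the 5 endothelial genes with a count, 4 were called higher in spleen and 0 lower, and all 6 fibroblast and stroma genes were called higher. The erythroid and NK cell lists had 7 of 8 and 4 of 6 genes called higher in spleen and 0 lower. Over all genes, 12% were called higher and 7.41% lower in spleen. The part of these cell types in the differences of the dendritic cell genes was not tested. With spleen libraries 5, 6 and 8 and CD45-negative library 4 left out together, the same 4 members were called higher in spleen, and none was called lower.

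The CD45-negative tumour cells had few or no counts of most members. Over the 12 libraries, Batf3, Cd209a, Clec10a, Siglech and Flt3 had 0 counts, where 3 counts over the group would correspond to 0.853 CPM. Xcr1 had 2 counts, Clec9a 3 and Ccr9 6, while Zbtb46 had 12 and Itgae 18. Against spleen, 8 of 10 members were called lower in CD45-negative cells, all except Clec10a and Zbtb46, where 21.7% of all genes were higher in spleen. Against bone marrow, 8 of 10 were called lower in CD45-negative cells, all except Clec9a and Zbtb46, where 19.8% of all genes were higher in bone marrow. Among genes of at least 1 CPM in at least 8 libraries, these shares were 29.9% for spleen and 30.5% for bone marrow. The members' median log2 fold change was 4.24 for spleen and 2.98 for bone marrow over CD45-negative cells, beside 0.22 and 0 over all genes, and with 5 members at 0 on 1 side these fitted medians depend on the fit's prior count.

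Siglech, Xcr1 and Flt3 separated the sorted cells from at least 1 organ without overlap. Siglech was at 0 in every CD45-negative library and present in all 8 spleen and all 8 bone marrow libraries, which made it at least 16.1-fold higher in spleen and at least 12.8-fold higher in bone marrow against the floor of 3 counts over the group. Xcr1 lay higher in every spleen library than in any CD45-negative library, with a ratio of pooled CPM of 42.8 and a counting interval of 11.4 to 361, but the lowest spleen library (4.51 CPM) and the highest CD45-negative library (4.42 CPM) held 1 count each. Flt3 was present in all 8 bone marrow libraries and at least 6.42-fold higher there, and at least 12.9-fold higher in spleen, where 1 library had no count. Such separation was shown by 3.98% of all genes for spleen and by 7.5% for bone marrow over CD45-negative cells.

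Batf3 was at least 14.7-fold higher in spleen than in CD45-negative cells and at least 2.03-fold higher in bone marrow. The bone marrow difference rested on 6 counts in 3 libraries, and its adjusted p of 0.0209 (edgeR) reached up to 0.106 when bone marrow library 1 or 7 was left out, 0.244 with DESeq2 and 0.515 with limma-voom. Cd209a was at least 5.99-fold higher in spleen and at least 7.09-fold higher in bone marrow, and Clec10a at least 5.07-fold higher in bone marrow. Clec10a in spleen and in CD45-negative cells was at or under the floor in both, so no fold is given. Clec9a had a spleen to CD45-negative ratio of 31.3, with a counting interval of 10.3 to 156, and a bone marrow ratio of 3.04, with an interval of 0.759 to 17.5 that includes 1. That bone marrow difference was not called (adjusted p = 0.207 by edgeR), but it was called without CD45-negative library 9, which held 2 of the 3 counts (adjusted p = 0.0477).

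Itgae and Ccr9 were the members with the most counts beside Zbtb46 in the sorted cells. Itgae ranged from 0 to 15.9 CPM (median 4.46) and was found in 10 of 12 libraries. It was 2.69-fold higher in spleen (log2 fold change 1.39, SE 0.46, adjusted p = 0.0102 by edgeR) and 3.32-fold higher in bone marrow (1.63, SE 0.43, adjusted p = 0.000614), with ranges that overlapped in both. The spleen call depended on spleen library 6, without which the log2 fold change was 0.99 and the adjusted p 0.115. Ccr9 was at 0 in 7 of 12 libraries and reached 12.4 CPM in the shallowest, and it was 20.5-fold higher in spleen and 9.29-fold higher in bone marrow. The 6 leukocyte genes summed to 58.35 to 128.9 CPM in the sorted cells, against 410.3 to 2602 in spleen and 1643 to 3072 in bone marrow. Most of the sum in the sorted cells came from Arhgdib, at a median of 81.7 CPM, beside 11.7 CPM for Lcp1. Both genes have exon bases opposite another gene (136 and 530). Coro1a, Laptm5 and Cd52 had log2 fold changes of 9.05, 8.49 and 8.98 for spleen over sorted cells. The defining marker Ptprc was at 0 in all 12 sorted libraries.

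**Figure D3:**
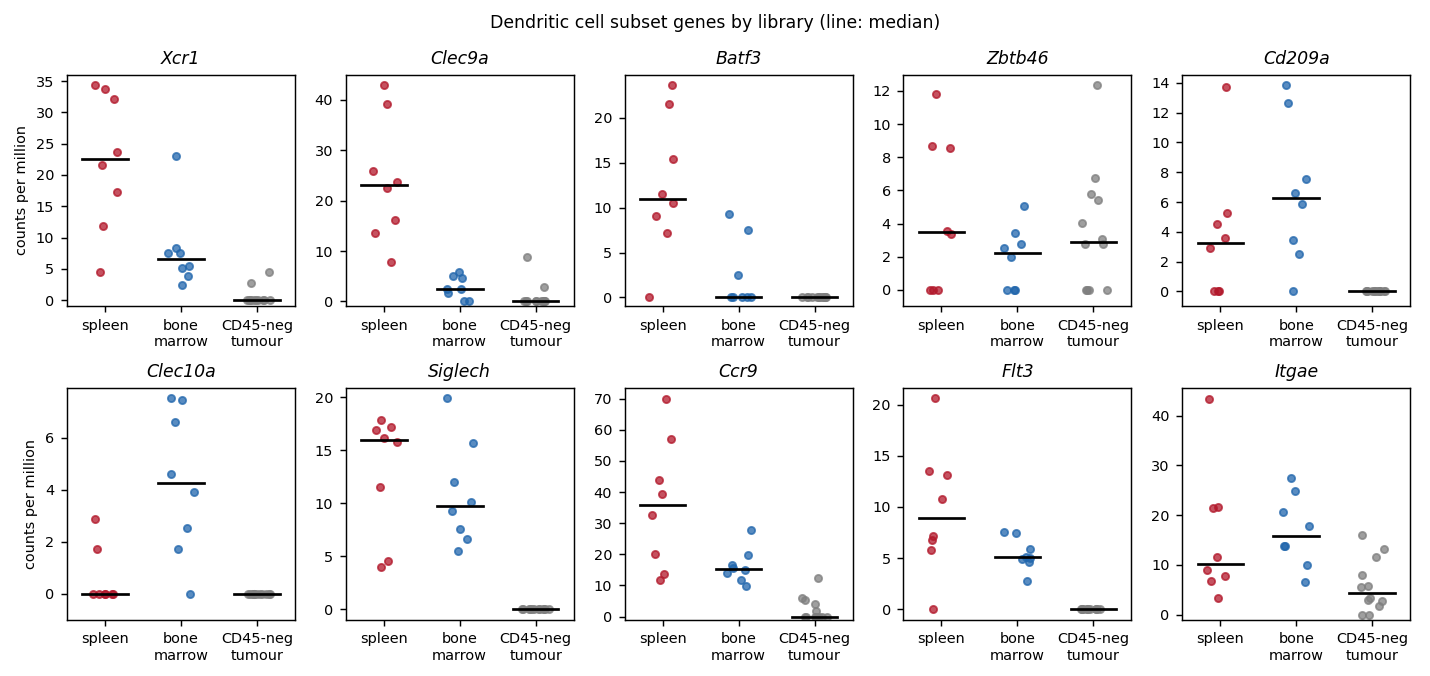
CPM of each of the 10 dendritic cell genes in every library of spleen (8), bone marrow (8) and CD45-negative tumour cells (12), with the line at the median and a separate scale for each gene. The spleen points of Clec9a lie above all bone marrow points, those of Siglech and Itgae overlap between the 2 organs, and 5 genes are at 0 in all CD45-negative libraries.

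Levels per kilobase of exon allow for gene length. They can be compared between genes only if counts are reads of each gene's own transcripts, which was not tested. On this scale Batf3 and Clec9a had the highest levels in spleen, with medians of 6.9 and 7.01 CPM per kilobase and means in the order just given. Xcr1 (5.07), Siglech (4.71) and Ccr9 (3.51) followed, and Flt3 (1.45), Zbtb46 (0.408) and Clec10a (0) were lowest. In bone marrow Cd209a (median 3.95), Itgae (3.45) and Siglech (2.86) came first, while Clec9a (0.759) and Zbtb46 (0.263) came last by their means. Each neighbour in either order overlapped the next in range, and only the step from Flt3 to Zbtb46 in spleen was larger than the SD of both. Of the cDC1 genes, Batf3, Clec9a and Xcr1 ranked 1, 2 and 3 in spleen and 6, 9 and 4 in bone marrow, and Itgae ranked 6 and 2. The order depended on the length used. With the longest transcript as length, Xcr1 moved to rank 5 and Ccr9 to rank 3 in spleen. In bone marrow the order then began with Siglech, Cd209a, Itgae, Ccr9, Batf3, Clec10a and Xcr1.

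Pairs of members were also compared by Pearson's r over the 28 libraries on the scale of log2(CPM + 1), a description that mixes tissues, depth and genes near 0. It was 0.81 for Xcr1 with Clec9a, 0.79 for Clec9a with Batf3 and 0.74 for Xcr1 with Batf3. Within the 8 spleen libraries these values were 0.32, 0.48 and 0.40. Pairs across subsets reached higher values, at 0.86 for Xcr1 with Siglech (0.89 in spleen) and 0.93 for Siglech with Flt3 (0.58 in spleen). Itgae had 0.22 to 0.47 with the 3 cDC1 genes over all libraries and -0.73 to -0.26 in spleen. The plasmacytoid pair Siglech and Ccr9 had 0.87 over all libraries and 0.90 in spleen, where libraries 5 and 6 were low in Siglech. Zbtb46 had values between -0.24 and 0.05 with the other 9 members over the 28 libraries.

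The protein-coding genes most like each member across the 28 libraries were taken by the same r. For Siglech they were Casc1, Ptprc and Vmn2r97 (each 0.98), and for Ccr9 Mast4 (0.92), Rps6kb2 (0.91) and Cd74 (0.90). For Clec10a they were Mmp9, Mmp8 and Csf3r (0.83, 0.83 and 0.82), and for Flt3 the nearest was Ltb (0.98). For Xcr1 the nearest was Mndal (0.92), for Clec9a Zmynd15 (0.90), for Batf3 Pdcd11 (0.89) and for Cd209a Slfn1 (0.84). Zbtb46 and Itgae had weaker nearest genes, Usp24 at 0.66 and 4933428G20Rik at 0.79. Casc1, Mast4, Rps6kb2, Zmynd15, Pdcd11 and 4933428G20Rik each have more than 50 exon bases opposite another gene.

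Other genes of the same subsets were read from lists of 10, against the 12% of all genes called higher and 7.41% called lower in spleen. Of the further cDC1 genes, 5 of 10 were called higher in spleen than in bone marrow and 0 lower (median log2 fold change 1.23). Cd36, a scavenger receptor also found on macrophages and endothelium, had a median of 39.3 CPM in spleen and 0 in bone marrow, at a log2 fold change of 4.76 (adjusted p = 6.17e-16 by edgeR). Tlr3, the sensor of double-stranded RNA, had 17 counts in spleen and 0 in bone marrow, and has 381 exon bases opposite another gene. Cadm1, an adhesion molecule, was higher in spleen by 2.60 on the log2 scale but was highest in CD45-negative cells, at a median of 71.6 CPM against 9.66 in spleen. Irf8, the transcription factor that Batf3 acts with, was not called between spleen and bone marrow (log2 fold change 0.33, SE 0.25, adjusted p = 0.378). It was 6.59 higher in spleen than in CD45-negative cells on the log2 scale.

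Of the further cDC2 genes, 2 of 10 were called higher in spleen, near the share of all genes, and 3 lower. Itgam, the integrin CD11b that neutrophils and monocytes also carry, was lower in spleen at a log2 fold change of -4.12, with medians of 9.94 CPM in spleen and 223 CPM in bone marrow. Mgl2, a close relative of Clec10a, was lower as well, with 1 count in spleen and 18 in bone marrow. Esam, which in spleen marks the cDC2 that depend on Notch2, was higher there (1.81, adjusted p = 0.0351 by edgeR), from 15 counts against 5. Notch2 itself was not called (-0.14, adjusted p = 0.807 by edgeR). Whether the Esam counts come from cDC2 or from other cells was not tested.

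Among further plasmacytoid genes 5 of 10 were called higher and 1 lower in spleen. Ly6d, also a B cell gene, was higher by 2.87 and Cox6a2 by 2.22 on the log2 scale, whereas Runx2 was lower at -2.66. Runx2 has 519 and Cox6a2 has 70 exon bases opposite another gene. Tcf4, the factor that fixes plasmacytoid identity, had a log2 fold change of 0.94 (SE 0.32, adjusted p = 0.0213 by edgeR).

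Genes of mature and migratory dendritic cells were called higher in spleen in 6 of 10 cases and lower in 0, with a median log2 fold change of 2.72. Fscn1, an actin-bundling protein, had 38 counts in spleen and 0 in bone marrow. Cd83, a maturation marker shared with B cells, had 75 counts in spleen and 6 in bone marrow, and Relb, an NF-kB subunit, had 56 and 5. Ccr7, which guides dendritic cells and naive T cells to lymphoid tissue, was higher by 3.24 on the log2 scale (SE 0.43, adjusted p = 3.8e-12 by edgeR).

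Of the ligands, growth factors and shared genes, 8 of 10 had a count, 0 were called higher and 3 lower in spleen. Csf2rb, the shared receptor chain for GM-CSF, was lower in spleen at -1.94 with medians of 22.7 and 73.7 CPM, and Nfil3 and Cdh1 were lower at -2.66 and -2.28. The ligand gene of Flt3, Flt3l, had a log2 fold change of 1.39 (SE 0.54, adjusted p = 0.053 by edgeR) and was not called.

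The authors' deposited table of their tumour comparison listed 2 of the 10 members among 11340 genes, of which 0.644% had an adjusted p below 0.05. In the authors' deposited table the log2 value of Itgae was 1.64 at an adjusted p of 0.213. For Zbtb46 the authors' deposited table gave -0.36 at an adjusted p of 0.856. Which genotype was subtracted from which is not stated. These were also the 2 members with the most counts in the CD45-negative libraries, and the other 8 were not listed.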

How the data were processed

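Per the labels' protocols, polyA RNA went into stranded TruSeq libraries, which were sequenced from both ends at 50 bp. The submitters' processing notes name HISAT2, edgeR, GRCm38 and mm10. For the counting program, its strand setting and the annotation, the sources used here give nothing. The authors deposited a table of raw read counts per gene and a table of a tumour comparison that holds, per the file headers, for each gene a log2 fold change, mean log2 CPM, F statistic (used as a score), p-value and adjusted p-value.

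The members and all gene lists were chosen with earlier results of these data known. The 28 columns whose names give a tissue were used, and 20 lymph node columns were not used, so the planned 5 tissues became 3 and 3 pairs. All 3 tissues entered 1 edgeR 4.0.16 quasi-likelihood fit with TMM factors (R 4.3.3), and genes were called at a Benjamini-Hochberg adjusted p below 0.05. The default filter kept 5143 genes and none of the members, so their tests come from the planned fit without a filter, over 24548 genes. Levels are CPM on TMM-scaled totals, and correlations used log2(CPM + 1). Alternatives used DESeq2 1.42.0, limma 3.58.1 (voom), other scalings and filters, and left out libraries, the last chosen after seeing the data. Counting intervals are exact binomial at 95% and, like the floor of 3 counts, cover counting error only. Exons came from GENCODE M21, in which 98.95% of identifiers have the same start and end. All 10 members are named. Of each other list, up to 3 called genes with the largest spleen to bone marrow difference were named, a rule moved from lymph node to these tissues after values were seen. Irf8, Tcf4, Ccr7 and Flt3l were added after their values were seen. Notch2, Coro1a, Laptm5, Cd52, Csf1r and Lyz2 were also named outside this rule, and Ptprc was named as a check. Of the 3 genes most like each member, those printed were also chosen after values were seen. The fits were tested on simulated data.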

Additional observations from a re-analysis of the deposited data

Results flagged for a closer look

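Of 20 groups of 8 libraries with a range above 0, 3 held a library whose gap to the next was large for the group's range by Dixon's test at 95%. For normally distributed values, chance alone flags about 1 in 20 groups. The values here come from few counts in libraries of unequal depth, so that rate need not hold. Cd209a reached 13.7 CPM in spleen library 3, from 8 counts, and the next library was at 5.25. Itgae reached 43.4 CPM in spleen library 6, from 11 counts, with the next at 21.5, and this is the library with the lowest B cell and T cell lists and the highest erythroid list among the spleens. Xcr1 reached 23.1 CPM in bone marrow library 7, from 5 counts in the bone marrow library with the lowest total, and the next was at 8.27.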

How the results depend on the processing

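Over all genes, the default filter gave 1977 calls for spleen against bone marrow, 3502 for spleen against CD45-negative cells and 3607 for bone marrow against CD45-negative cells. Without a filter these were 4761, 8296 and 8585, and with at least 1 CPM in 8 libraries 4175, 7681 and 8326, as more genes were tested. DESeq2 size factors, TMM factors from genes with no opposite-strand exon, the DESeq2 Wald test, limma-voom, fits of only the 2 tissues compared and leaving out libraries kept these counts within 1.5 times. Leaving out each library gave 1799 to 2254, 3385 to 3569 and 3504 to 3714 calls.

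Of the 30 member tests, other scalings changed no call. With DESeq2 the calls of Clec10a between spleen and bone marrow (adjusted p = 0.209) and of Batf3 between bone marrow and CD45-negative cells (0.244) were lost. With limma-voom those of Ccr9 between spleen and bone marrow (0.0785) and of Batf3 (0.515) were lost, and Zbtb46 between spleen and CD45-negative cells turned from 0.51 to -0.0637, called in neither. Clec10a was also lost in the fit of only spleen and bone marrow (0.055). Without the 4 libraries least like their group, Clec10a (0.127) and Itgae between spleen and CD45-negative cells (0.263) were lost. Causes were not tested. Over single libraries left out, 4 members stayed higher in spleen than in bone marrow and 0 to 1 lower, 7 to 8 were higher in spleen and 7 to 9 in bone marrow than in CD45-negative cells.

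Members had few counts, 2 to 89 per gene over the 8 libraries of an organ, and whether counts come from each gene's own strand was not tested. The planned comparison of tumour-bearing with baseline lymph node, its alternatives and the pairs with lymph node were not run. No paired analysis was possible because the labels number animals within a genotype, and nothing in them ties those numbers to the ones in the column names.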
